A study of Mus musculus with 6 samples.

Results

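Astrocytes clear the glutamate that neurons release and return much of it as glutamine. Transporters of the Slc1 family carry glutamate into the astrocyte with sodium, glutamine synthetase turns it into glutamine, and carriers such as Slc38a3 let glutamine leave the cell. Glutamate that is not turned into glutamine can be burned through glutamate dehydrogenase and the aspartate aminotransferases, which also link the cytosol with the mitochondrion. The 7 genes described here are those of this route: the transporters Slc1a3 (GLAST) and Slc1a2 (GLT1), the synthetase Glul, the glutamine carrier Slc38a3, the dehydrogenase Glud1 and the aminotransferases Got1 and Got2. They were chosen by symbol, and each of the 7 symbols matched 1 row of the 43383 rows of the deposited expression table.

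The RNA came from GFP-positive cells sorted from the somatosensory cortex of Aldh1l1-eGFP mice, males 4 weeks old, a line in which the promoter of an astrocyte gene drives the reporter. Upper-layer astrocytes (ULAs, from layers II to IV) and deep-layer astrocytes (DLAs, from layers V and VI) were taken from the same 3 brains, which gave 3 libraries per layer. Layer I, the meninges, the corpus callosum and part of the border between layers IV and V had been cut away. No treatment or other allele separated the groups. All values are RPKM, in which reads are divided by mRNA length and by library depth, so that levels of different genes can be set side by side per length.

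The steps of the RPKM values put the depth at 19657000 to 29558000 reads per library. All 7 astrocyte markers on the list were present, with a summed level of 7493 to 8384 RPKM in ULAs and 7349 to 8481 RPKM in DLAs. The 8 neuronal markers summed to at most 7.29 RPKM, the 6 microglial markers to at most 1.52 RPKM, the 5 endothelial markers to at most 1.59 RPKM and the 2 markers of oligodendrocyte precursors to at most 0.93 RPKM in any library. The 6 oligodendrocyte markers were above these levels, with sums of 86.5 to 174.5 RPKM in ULAs and 173.9 to 270.9 RPKM in DLAs. Of the 4 markers of upper-layer neurons, 2 reached a mean of 1 RPKM (sums of 86.6 to 129.9 RPKM over all libraries), most of it from Rorb, and of the 4 markers of deep-layer neurons only Fezf2 did (sums of 3.96 to 9.57 RPKM), while Bcl11b was listed at 0 in all 6 libraries. In sorted bulk samples such as these, fewer cells of a type and less RNA per cell cannot be told apart.

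In ULAs and in DLAs the route was led by uptake. Slc1a3 was the most abundant of the 7 mRNAs in each of the 6 libraries, where it ranked between 14 and 27 among all rows of the table, and it made up 63.1% to 63.7% of the summed RPKM of the 7 genes in ULAs and 57.0% to 60.1% in DLAs. Slc38a3 came next in all 6 libraries, at ranks 64 to 112. Slc1a2 and Glul followed. Their ranges did not overlap in ULAs but did in DLAs, where Glul was above Slc1a2 in brain 2. Glud1, Got1 and Got2 held the last 3 places in this order in every library, and their ranges of RPKM did not overlap. The order and the shares of Slc1a3 rest on the mRNA lengths used (12068 bases for Slc1a2, 4206 for Slc1a3, 2726 for Slc38a3). By reads per library, Slc1a2 (71244 to 123490) was above Slc38a3 (32339 to 53227) and below Slc1a3 (147984 to 277390).

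The question put to the libraries was whether any step of the route differs between the layers. Layers were compared with limma on log2(RPKM + 1) over the 13999 rows with a mean of at least 1 RPKM, with the brain as a block, and Benjamini-Hochberg adjustment covered all of these rows. All 7 genes passed the filter on low values. None of the 7 genes passed an adjusted p of 0.05 (0 of 7, limma), where 1.63% of all tested rows did (0.714% with ULAs above DLAs and 0.914% the other way). At an unadjusted p under 0.05, 2 of 7 genes (Slc1a3 and Slc38a3, both higher in ULAs) were counted, beside 16.4% of all rows. The median log2 fold change (ULA over DLA) of the 7 genes was 0.07 and that of all tested rows was −0.03. The layers did not overlap for 2 of the 7 genes, beside 15.9% of all tested rows. Both genes, Slc1a3 and Slc1a2, were higher in ULAs (6.59% of rows), and 0 of 7 lay wholly higher in DLAs (9.27% of rows). In all 3 brains, 4 of 7 genes moved in 1 direction, as 38.4% of rows did: Slc1a3, Slc1a2 and Slc38a3 were higher in ULAs (15.2% of rows) and Got1 was higher in DLAs (23.2% of rows).

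**Figure D1:**
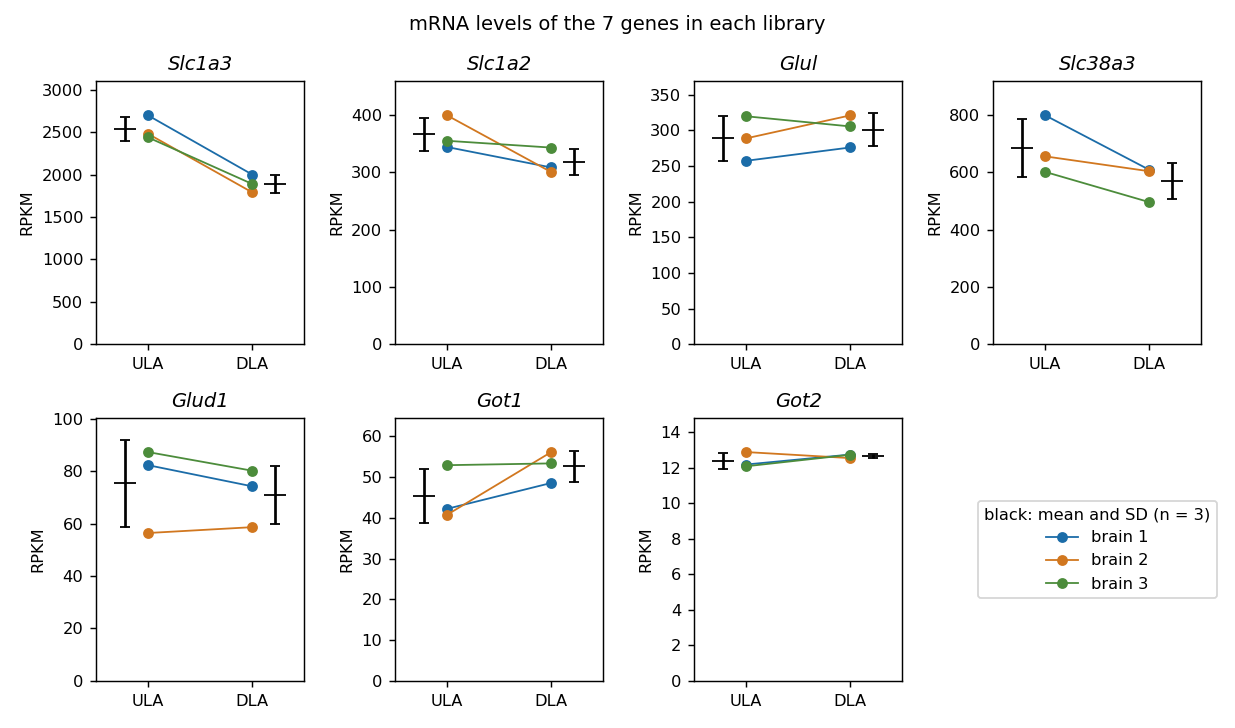
RPKM of each of the 7 genes (vertical axes from 0, in RPKM) in upper-layer (ULA) and deep-layer (DLA) astrocytes. Points are single libraries joined by brain, and black marks give the mean and SD of 3 libraries. The 3 lines of Slc1a3 fall from ULA to DLA with no overlap of the layers (lowest ULA value 2437.88, highest DLA value 2000.03), whereas those of Got2 stay between 12.07 and 12.87.

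Slc1a3, the sodium-driven glutamate transporter known as GLAST, stood nearest to the threshold. Its row covers chromosome 15 from 8584124 to 8660807 on the minus strand (10 exons, coordinates of the table, for which the submitters' processing notes name build mm9). In brains 1, 2 and 3, ULAs held 2697.38, 2480.38 and 2437.88 RPKM and DLAs held 2000.03, 1789.90 and 1888.97 RPKM. Values are given in this order of brains throughout. The layers did not overlap, and each brain gave nearly the same ratio, with a mean upper/deep ratio of 1.34 ± 0.0480 (SD, n = 3 brains). Between 147984 and 277390 reads stand behind each value. The log2 fold change of 0.42 (SE 0.09) corresponds to a level 34.1% higher in ULAs, with a 95% interval of 16.4% to 54.4%, and an adjusted p of 0.0554 (limma). The call turned on the setting: the gene passed in 5 of 11 alternatives (adjusted p down to 0.0229, without brain 3) and was farthest from passing without brain 1 (adjusted p = 0.642), while its log2 fold change stayed between 0.37 and 0.45.

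Slc1a2 encodes GLT1, which carries most glutamate uptake in the adult forebrain. Its row spans chromosome 2 from 102498840 to 102630941 on the plus strand (12 exons) and joins 3 RefSeq records into an mRNA of 12068 bases, by far the longest of the 7. It was measured at 344.14, 399.40 and 355.04 RPKM in ULAs and at 308.45, 300.33 and 343.13 RPKM in DLAs of brains 1, 2 and 3. All ULA values were above all DLA values, but by only 1.01 RPKM between the nearest pair, and the brains did not give the same ratio, with 1.12, 1.33 and 1.03. The log2 fold change was 0.21 (SE 0.10), with an interval from −1.36% to 34.8% on the linear scale and an adjusted p of 0.346 (limma). The log2 fold change was 0.10 without brain 2 and 0.08 after a correction for mRNA length. It was 0.28 without brain 3 and 0.30 under quantile normalization, and it stayed above 0 in all 11 alternatives.

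Set against each other within a library, the Slc1a3 level was 7.84, 6.21 and 6.87 times the Slc1a2 level in ULAs and 6.48, 5.96 and 5.51 times in DLAs. Such a ratio does not depend on how the library was scaled, but its level depends on the mRNA lengths of both rows. It was higher in ULAs in 3 of 3 brains, but the layers overlapped, and an exact permutation test (2-sided, pairs kept) gave p = 0.25, the smallest value that 3 pairs allow. The mean difference of the log2 ratio was 0.22 ± 0.139 (SD of 3 brains).

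Glul, glutamine synthetase, is the enzyme that fixes ammonia onto glutamate and is a classical astrocyte marker, although oligodendrocytes also use it. It lies on chromosome 1 from 155747075 to 155756844 (plus strand, 7 exons). The level was 257.21, 288.65 and 319.63 RPKM in ULAs and 275.90, 320.92 and 305.40 RPKM in DLAs. The ranges overlapped almost fully, and the direction differed between brains, with DLAs higher in brains 1 and 2 and ULAs higher in brain 3. In limma the difference was −0.06 on the log2 scale (SE 0.09, adjusted p = 0.789), with an interval from −17.2% to 10.7%. The summed level of the oligodendrocyte markers, given above, was lower in ULAs in each brain, and the part of these cells in the Glul values was not tested.

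Slc38a3 (SNAT3), on chromosome 9 from 107553486 to 107571299 (minus strand, 17 exons), carries glutamine across the astrocyte membrane in either direction. Its level was 798.60, 655.53 and 601.23 RPKM in ULAs and 608.38, 603.51 and 495.65 RPKM in DLAs. ULAs were higher within each of the 3 brains, yet the layers overlapped across brains, and brain 1 was the highest and brain 3 the lowest in both layers. The means of the brains differed by 0.35 on the log2 scale, more than the layers, whose difference was 0.26 (SE 0.10). The interval ran from 3.53% to 39.1% higher in ULAs, and the adjusted p was 0.216 (limma). The alternatives gave values between 0.0872 and 0.939 (limma).

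Ratios that join uptake, synthesis and export were also read within each library. The level of Glul relative to the sum of Slc1a2 and Slc1a3 was 0.0846, 0.1002 and 0.1144 in ULAs and 0.1195, 0.1535 and 0.1368 in DLAs. It was lower in ULAs in 3 of 3 brains and the layers did not overlap, with DLAs 1.37-fold above ULAs on average (log2 difference −0.46 ± 0.182, SD of 3 brains). The exact permutation test gave p = 0.25 with pairs kept and p = 0.1 without, in both cases the smallest value the design allows. Slc1a3 made up most of the denominator, so this ratio largely repeats its difference (log2 fold change 0.42, against −0.06 for Glul). The summed oligodendrocyte markers were also lower in ULAs in each brain, and their part in this ratio was not tested. Slc38a3 relative to Glul was 3.10, 2.27 and 1.88 in ULAs and 2.21, 1.88 and 1.62 in DLAs, higher in ULAs in 3 of 3 brains but with overlapping layers (log2 difference 0.33 ± 0.148, exact permutation p = 0.25).

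**Figure D2:**
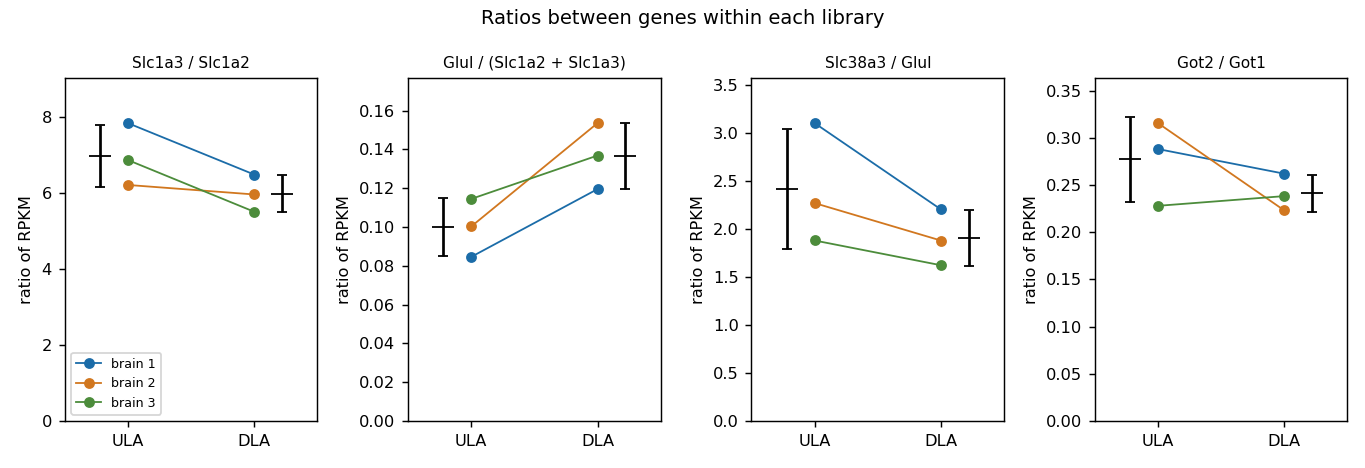
Ratios of RPKM between genes within each library (vertical axes from 0, no unit), for ULA and DLA libraries joined by brain, with the mean and SD of 3 libraries in black. The ratio of Glul to both transporters is higher in DLAs in each brain and does not overlap (highest ULA value 0.1144, lowest DLA value 0.1195), and the other 3 ratios overlap.

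The enzymes that pass glutamate on to energy metabolism were less abundant and gave no difference past the threshold. Glud1, glutamate dehydrogenase, turns glutamate into alpha-ketoglutarate in the mitochondrion (chromosome 14 from 35123913 to 35158219, plus strand, 13 exons). It was at 82.25, 56.38 and 87.24 RPKM in ULAs and at 74.18, 58.61 and 80.13 RPKM in DLAs. Brain 2 was the lowest in both layers, and brain means spread over 0.53 on the log2 scale, against a layer difference of 0.07 (SE 0.10, adjusted p = 0.766, limma).

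Got1, the cytosolic aspartate aminotransferase (chromosome 19 from 43574243 to 43599095, minus strand, 9 exons), was the member that leaned most towards DLAs. Its level was 42.23, 40.77 and 52.94 RPKM in ULAs and 48.58, 56.16 and 53.38 RPKM in DLAs. DLAs were higher in 3 of 3 brains, but in brain 3 by less than 1 RPKM, and the ranges overlapped. The log2 fold change was −0.22 (SE 0.11), with an interval from −27.9% to 2.13% and an adjusted p of 0.360 (limma), and it was −0.10 without brain 2 and −0.33 without brain 3.

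Got2, the mitochondrial form of the enzyme (chromosome 8 from 98388037 to 98412265, minus strand, 10 exons), varied least. It was at 12.17, 12.87 and 12.07 RPKM in ULAs and at 12.73, 12.53 and 12.72 RPKM in DLAs, on 578 to 882 reads per library. The 6 libraries lay within a 1.07-fold range, and the log2 difference in limma was −0.03 (SE 0.11, adjusted p = 0.920), with an interval from −17.9% to 16.6%. The ratio of Got2 to Got1 averaged 0.277 ± 0.0448 for ULAs against 0.241 ± 0.0196 for DLAs (SD, n = 3), with overlapping layers and 2 of 3 brains higher in ULAs (exact permutation p = 0.5). Its log2 difference of 0.19 was 0.22, 0.04 and 0.32 without brains 1, 2 and 3.

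Reads of 36 bases can be placed at more than 1 copy of a gene, and the program that placed them is not given in the sources used here. In the GENCODE vM21 transcripts, 54.5% of the 36-base windows of the Got2 mRNA also occurred in transcripts of another gene, chiefly the lincRNA Gm10874 (43.1%) and the processed pseudogene Got2-ps1 (37.2%). The share was 21.7% for Glul (16.5% with the pseudogene Glns-ps1), 11.5% for Glud1 and 1.67% for Slc1a2. No window of Slc1a3, Got1 or Slc38a3 was shared. The levels of Got2, and to a lesser extent those of Glul and Glud1, are therefore uncertain. So is the ratio of Got2 to Got1 and, to a lesser extent, those of Glul to both transporters and of Slc38a3 to Glul. In the table itself, 2 rows of the opposite strand share 189 and 166 exon bases with Slc1a2 and were at 234.1 to 261.0 and 145.4 to 174.6 RPKM. The kit does not mark strand, so reads in these stretches cannot be told apart.

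**Figure D3:**
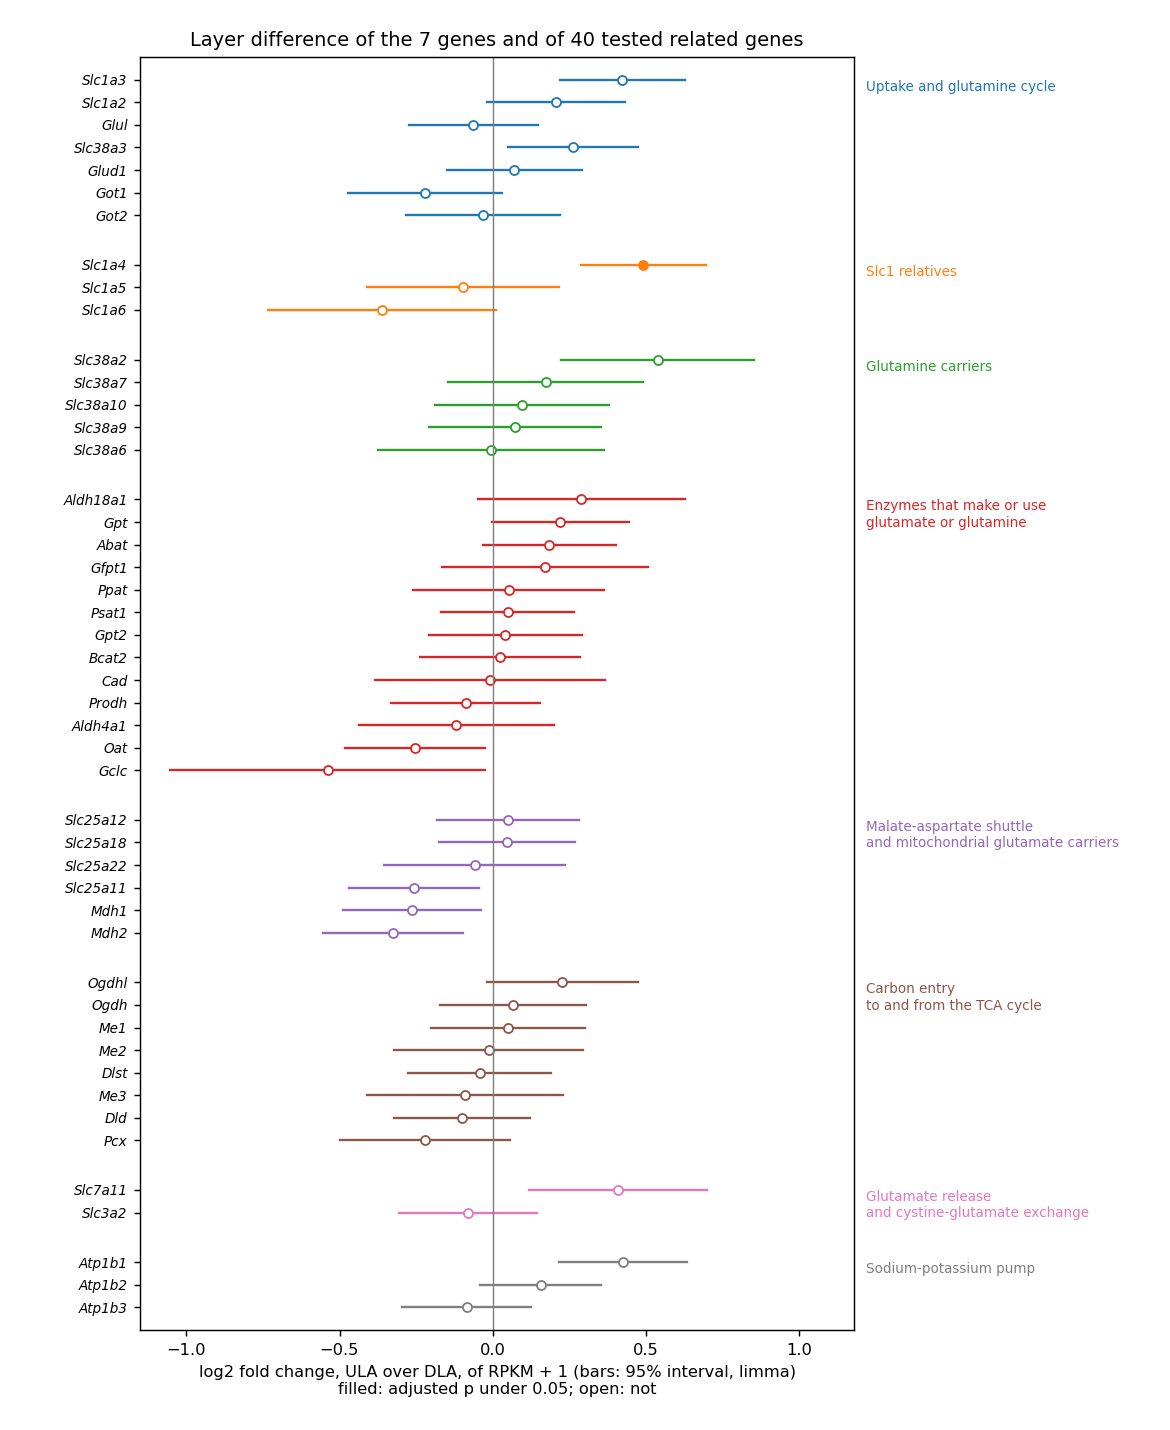
Log2 fold change (horizontal axis, ULA over DLA, of RPKM + 1) of the 7 genes and of 40 of the 42 tested related genes, with 95% intervals from limma. Filled points passed an adjusted p of 0.05. Slc1a4, at 0.49, is the only filled point, and the 7 genes at the top run from −0.22 (Got1) to 0.42 (Slc1a3).

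Around the 7 genes, 60 related genes in 7 lists were read from the same fit, of which 42 passed the filter on low values. A single one of them, Slc1a4, passed (1 of 42, or 2.38%, beside 1.63% of all rows), and 9 (21.4%) had an unadjusted p under 0.05, 4 with ULAs above DLAs and 5 the other way, beside 16.4% of all rows. Their median log2 fold change was 0.04.

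Slc1a4 (ASCT1), an exchanger of neutral amino acids such as serine and alanine, belongs to the family of the glutamate transporters. It was at 181.79, 143.88 and 130.07 RPKM in ULAs and at 128.87, 104.77 and 89.81 RPKM in DLAs of brains 1, 2 and 3. ULAs were higher in 3 of 3 brains, and the layers did not overlap, although the lowest ULA value and the highest DLA value lay close together. In limma the log2 fold change of 0.49 (SE 0.09) passed at an adjusted p of 0.0284. It passed in 6 of 11 alternatives. It did not pass without the replicate block, where its adjusted p was highest at 0.412 (limma), nor with no filter, without the trend, with the length correction or without brain 1. Of the other relatives, Slc1a5 (4.42 to 6.42 RPKM in ULAs and 4.82 to 6.63 RPKM in DLAs) and Slc1a6 (2.24 to 3.44 and 3.34 to 4.24 RPKM) were low and did not pass, and Slc1a1, the neuronal glutamate transporter, and Slc1a7 were under the filter.

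Of the 10 other Slc38 carriers, 5 were tested and none passed, with 1 at an unadjusted p under 0.05. All of them were far below Slc38a3, the most abundant being Slc38a10 at 8.24 ± 1.53 RPKM in ULAs and 7.57 ± 0.407 RPKM in DLAs (SD, n = 3). Slc38a2, a sodium-coupled carrier of small neutral amino acids, had 7.51, 10.33 and 3.87 RPKM in ULAs and 5.55, 5.44 and 2.63 RPKM in DLAs. ULAs were higher in 3 of 3 brains, by 0.54 on the log2 scale (SE 0.14), but the adjusted p was 0.101 (limma). For Slc38a7 the difference was 0.17 on that scale, at an adjusted p of 0.585 (limma).

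Among 19 enzymes that make or use glutamate or glutamine, 14 were tested and none passed, 2 of them with an unadjusted p under 0.05. The neuronal decarboxylases Gad1 and Gad2 were at or under 0.28 RPKM in every library. Prodh, proline dehydrogenase, had the highest mean over both layers, with 172.3 ± 24.9 RPKM in ULAs and 182.6 ± 17.6 RPKM in DLAs (SD, n = 3). Oat, ornithine aminotransferase, had 128.12, 155.54 and 151.05 RPKM in ULAs and 171.75, 190.28 and 156.58 RPKM in DLAs, higher in DLAs in 3 of 3 brains (log2 fold change −0.25, adjusted p = 0.260, limma). Gclc, the first enzyme of glutathione synthesis, had the largest fold change of the list (−0.54), but its DLA values of 17.69, 3.79 and 15.23 RPKM spread more than the layers differed (adjusted p = 0.283, limma). Brain 2 was the lowest in both layers and the only one higher in ULAs, and without it Gclc passed, at −0.95 and an adjusted p of 0.0143 (limma). Aldh18a1, which starts proline synthesis from glutamate, differed by 0.29 on the log2 scale, at an adjusted p of 0.374 (limma).

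The malate-aspartate shuttle carries reducing equivalents from the cytosol into the mitochondrion, and uses Got1 and Got2 together with the malate dehydrogenases Mdh1 and Mdh2 and the carrier Slc25a11. Of the 7 genes of this list 6 were tested and none passed, and 3 of the 6 had an unadjusted p under 0.05 (16.4% of all rows), all higher in DLAs. Of the 2295 rows at that p in the whole table, 1505 were also higher in DLAs. The split (ULAs and DLAs higher) became 1092 and 1085 under quantile normalization, and 970 and 916 with the correction for mRNA length. Mdh2 was at 212.12, 207.84 and 256.55 RPKM in ULAs and at 254.32, 303.32 and 288.72 RPKM in DLAs, a difference of −0.32 on the log2 scale (SE 0.10) at an adjusted p of 0.162 (limma). Mdh1 was at 307.7 ± 44.4 and 367.6 ± 24.1 RPKM (SD, n = 3), a log2 difference of −0.26 at an adjusted p of 0.238 (limma), and Slc25a11 at 116.8 ± 5.65 and 139.7 ± 7.12 RPKM (−0.26, adjusted p = 0.223, limma). All 3 genes were higher in DLAs in 3 of 3 brains. Slc25a18, a mitochondrial glutamate carrier with the highest level of the list, was at 468.5 ± 59.6 and 457.4 ± 93.9 RPKM (log2 fold change 0.05, adjusted p = 0.856, limma).

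The 8 genes through which carbon enters or leaves the citric acid cycle were all tested, and none passed or had an unadjusted p under 0.05. Pyruvate carboxylase (Pcx), the astrocyte enzyme that supplies new carbon for glutamate, was at 34.7 ± 3.19 RPKM in ULAs and 41.2 ± 9.70 RPKM in DLAs (log2 fold change −0.22, adjusted p = 0.410, limma). Ogdhl differed by 0.23 on the log2 scale, at an adjusted p of 0.343 (limma), and Dld, the most abundant, was at 76.0 ± 9.30 and 81.3 ± 5.76 RPKM (SD, n = 3).

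The vesicular glutamate transporters Slc17a6, Slc17a7 and Slc17a8 of neurons were under the filter in these astrocytes. Slc7a11, which exchanges glutamate for cystine, was at 19.01, 20.93 and 19.57 RPKM in ULAs and at 13.51, 12.87 and 18.15 RPKM in DLAs. The layers did not overlap, but with a log2 difference of 0.41 (SE 0.13) the adjusted p was 0.164 (limma). Its partner subunit Slc3a2 was at 346.3 ± 30.3 and 366.9 ± 37.0 RPKM (log2 fold change −0.08, adjusted p = 0.733, limma).

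The sodium-potassium pump maintains the gradient that drives uptake, and 4 of its 6 listed subunits were tested, with none past the threshold and 1 at an unadjusted p under 0.05. Atp1b1, a beta subunit, was at 347.02, 307.58 and 327.11 RPKM in ULAs and at 249.44, 216.80 and 265.92 RPKM in DLAs. Its layers did not overlap. At a log2 difference of 0.43 (SE 0.09), its adjusted p of 0.0579 (limma) was close to that of Slc1a3. It passed in 3 of 11 alternatives. The beta subunit Atp1b2 was at 821.8 ± 38.4 and 737.2 ± 39.9 RPKM (SD, n = 3) and differed by 0.16 on the log2 scale, at an adjusted p of 0.413 (limma).

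Over the 6 libraries, the rows whose log2 level followed Slc1a3 most closely, among 5715 RefSeq rows of at least 10 RPKM, were Ptplad1 (Pearson's r = 0.991), Sema4d (0.986) and Usp33 (0.986). For Slc1a2 they were Fchsd2 (r = 0.987), Tcf4 (0.976) and Tenm3 (0.972). These values describe 6 libraries that share brains in pairs, and they were picked as the highest among many rows. Ptplad1 was at 532.2, 489.8 and 473.7 RPKM in ULAs and at 423.1, 371.8 and 386.7 RPKM in DLAs, where brain 1 was the highest in both layers, as for Slc1a3. Fchsd2, like Slc1a2, had its highest ULA value and its lowest DLA value in brain 2 (36.5 and 22.6 RPKM).

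**Figure D4:**
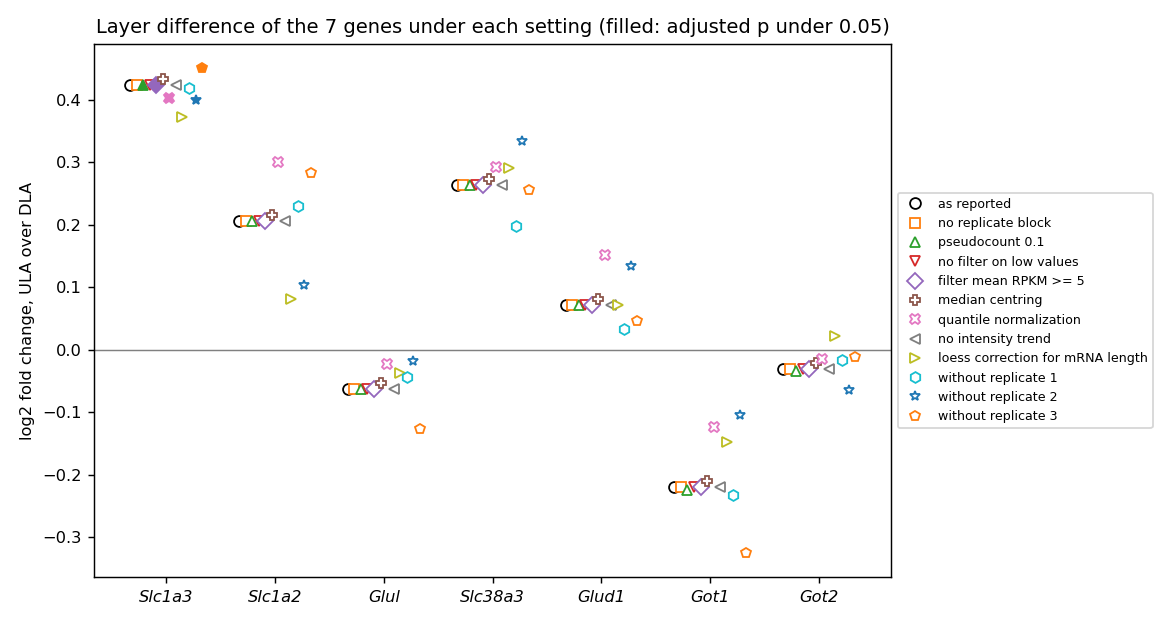
Log2 fold change (vertical axis, ULA over DLA) of the 7 genes as reported and under the 11 alternatives, with filled symbols for an adjusted p under 0.05. Filled symbols occur for Slc1a3 alone, in 5 alternatives, and Got2 is the only gene with a value on the other side of 0 (0.02, with the correction for mRNA length).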

How the data were processed

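GFP-positive astrocytes of 3 brains were sequenced as 3 ULA and 3 DLA libraries with single reads of 36 bases (SMART-Seq v4 and Nextera XT kits). The authors deposited RPKM with 2 decimals for each row. The submitters' processing notes name CASAVA 1.8.2, bcl2fastq 1.8.4 and build mm9, and the aligner and counter are not given in the sources used here. In rows of up to 500 bases the values were whole multiples of 1 read once the depth-scaled reads had been truncated to 2 decimals (99.9% to 100% of values), which gave the depth. Reads are quoted for precision only.

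Rows with a mean of at least 1 RPKM were tested on log2(RPKM + 1) with limma 3.58.1 in R 4.3.3 (lmFit, eBayes with trend), 2-sided, with replicate number and layer as terms. The study also paired the layers, but with a paired t-test whose p-values are not described as adjusted. Fold changes on this scale understate those of low genes. The labels do not state that the number is the brain. The study took 3 brains, and libraries of equal number deviated together, with a correlation over rows of 0.422, 0.333 and 0.341 (−0.199 to −0.160 between unequal numbers), so the number was used as the brain. The fit was also run on simulated data, and no result of that run is given or used here. Ratios were tested by exact permutation, which cannot give p under 0.25 with pairs or 0.1 without.

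The members, gene lists, ratios and tests were chosen with earlier results of these data known. Named genes were the 7 members, and of each related list those that passed, the 3 with the largest fold change and the most abundant, plus the 3 rows most like Slc1a3 and Slc1a2, except that some related genes are not reported here. Gad1, Gad2, Slc1a1, Slc1a7 and the Slc17 genes were named after their values were seen, as were Rorb, Fezf2 and Bcl11b. Shared windows were counted on both strands in GENCODE vM21 transcripts that match the rows' RefSeq accessions. Alternatives were no replicate block, a pseudocount of 0.1, no filter, a mean of at least 5 RPKM, median centring, quantile normalization, no trend, a loess correction for mRNA length (span 0.5) and each brain left out. Other tools were Python 3.11.15, pandas 2.3.3, numpy 2.4.6 and matplotlib 3.10.9.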

Additional observations from a re-analysis of the deposited data

How the results depend on the processing

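Of the 7 members, 1 (Slc1a3) passed with a pseudocount of 0.1, a mean of at least 5 RPKM or quantile normalization, and from 0 to 1 with a brain left out. The related genes that passed numbered 0 without the replicate block, with no filter, without the trend and with the length correction, 2 (Slc1a4 and Atp1b1) with a mean of at least 5 RPKM or quantile normalization, and 0 to 6 with a brain left out. Without brain 3 these 6 were Slc1a4, Atp1b1, Slc7a11, Slc38a2, Mdh1 and Mdh2. Over all rows, 228 passed as reported, against 41 without the replicate block, 0 with no filter (2799 at an unadjusted p under 0.05), 144 without the trend and 217 to 1126 with a brain left out, the highest without brain 3. The split of 100 rows higher in ULAs and 128 higher in DLAs became 138 and 103 under quantile normalization, and 77 and 77 with the length correction. Got2 turned from −0.03 to 0.0224 with the length correction, and the other 6 members kept their direction under all 11 alternatives. The 4 ratios kept theirs with each brain left out and have no other setting but the pairing. Without brain 1 the adjusted p of every member was at least 0.642 (limma). The causes of these changes were not tested. Between 578 and 882 reads stand behind the values of Got2, the fewest of the 7 members.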
